A study of Caenorhabditis elegans with 2 samples.

Results

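The small nucleolar RNA (snoRNA) and small nuclear RNA (snRNA) genes of Caenorhabditis elegans were examined for regions bound by ETS-4, an ETS-domain transcription factor. All 475 genes annotated with either biotype on the 6 nuclear chromosomes were taken, out of 46890 annotated nuclear genes. They comprised 346 snoRNA and 129 snRNA genes. Each gene was given the region of highest signal whose summit lay within 200 bp of it. Genes entered by biotype and by no binding value, but the class was chosen with earlier results of these data known.

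The regions came from chromatin immunoprecipitation sequencing (ChIP-seq) of whole hermaphrodite late embryos, collected 5 hours after synchronization by bleaching. The strain, OP509 (unc-119(tm4063) III; wgIs509), stably expressed ETS-4 with GFP and FLAG at its C-terminus, and an antibody against GFP was used for the precipitation. Both samples (n = 2) were biological replicates of 1 group, so no conditions were compared. Whole embryos mix all cell types, and the signal is that of the tagged transgene product. The replicate lists held 15619 and 14622 regions, weak ones included. The pooled list held 12348. The list of reproducible regions, selected by the irreproducible discovery rate (IDR), held 1106. Signal is the value the authors deposited for each region, and read depth is unknown. All positions are 1-based in ce11 (WBcel235).

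snoRNAs guide the chemical modification of other RNAs, mainly ribosomal RNA, in the nucleolus. Box C/D snoRNAs direct ribose methylation, and box H/ACA snoRNAs direct pseudouridylation. snRNAs are the RNA parts of the spliceosome, and in nematodes they also include the spliced leader RNAs. SL1 RNA gives its leader to many messenger RNAs, and SL2 RNA gives its leader mainly to the downstream genes of operons. Many snoRNA genes lie in introns of host genes, while others stand alone. tRNA genes, the most similar class of short genes, carry their promoter inside the gene as an A box followed by a B box, which RNA polymerase III factors recognise.

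Sequences are shown first for snoRNA genes among the 8 distinct regions of highest IDR signal on chromosomes II to V and X, since several share an arrangement of letters before the gene. Each runs 5' to 3' along the strand of the gene, from 120 bases before its start to 20 bases after it. Capitals mark an A-type run (TGGNNNA) and a B-type run (GTTCNANNC) that starts 25 to 90 bases after it. ZK994.7 and T06C12.16 hold no such pair and have no capitals.
C51F7.3 (chrV:12303588-12303727, plus strand): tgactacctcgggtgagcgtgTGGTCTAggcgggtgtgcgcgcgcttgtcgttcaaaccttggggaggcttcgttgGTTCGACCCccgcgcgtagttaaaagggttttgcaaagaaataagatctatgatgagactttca
ZK994.7 (chrV:8500459-8500598, plus strand): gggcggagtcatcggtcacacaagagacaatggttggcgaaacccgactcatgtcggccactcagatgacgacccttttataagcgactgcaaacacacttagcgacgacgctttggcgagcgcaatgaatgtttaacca
T03F7.8 (chrV:11314138-11314277, plus strand): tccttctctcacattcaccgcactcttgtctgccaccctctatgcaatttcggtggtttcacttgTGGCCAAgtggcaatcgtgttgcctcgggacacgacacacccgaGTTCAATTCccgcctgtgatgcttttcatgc
W03C9.9 (chrII:11960778-11960917, plus strand): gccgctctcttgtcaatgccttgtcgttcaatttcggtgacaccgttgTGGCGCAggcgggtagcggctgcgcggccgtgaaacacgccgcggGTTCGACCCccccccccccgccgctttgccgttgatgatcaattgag
T06C12.16 (chrV:15873907-15874046, minus strand): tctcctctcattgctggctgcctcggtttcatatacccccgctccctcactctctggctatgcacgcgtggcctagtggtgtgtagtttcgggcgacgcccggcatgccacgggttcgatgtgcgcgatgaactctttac
Y43F8C.22 (chrV:19643168-19643307, minus strand): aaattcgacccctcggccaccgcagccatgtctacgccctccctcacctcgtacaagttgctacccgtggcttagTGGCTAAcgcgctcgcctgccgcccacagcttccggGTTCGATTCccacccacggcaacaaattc
C05D2.15 (chrIII:5602160-5602299, minus strand): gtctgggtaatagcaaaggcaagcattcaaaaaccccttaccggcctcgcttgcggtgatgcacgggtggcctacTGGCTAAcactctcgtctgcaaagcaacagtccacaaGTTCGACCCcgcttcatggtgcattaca

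The same stretch is shown for 6 of the 7 snRNA genes with an IDR region, since they lacked the A-type and B-type pair. Of these, sls-2.1 was the remaining gene of the 8 regions above, and the other snRNA genes were chosen after their values were seen. Capitals mark GGAACCC, a run picked after these letters were seen, and, in F54D8.7, also a B-type run. R07E5.16 is the copy WBGene00014543 of 14 genes with that name.
sls-2.1 (chrII:5844745-5844884, plus strand): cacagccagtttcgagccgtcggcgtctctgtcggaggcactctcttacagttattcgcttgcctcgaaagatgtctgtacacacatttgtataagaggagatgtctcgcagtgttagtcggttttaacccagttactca
R07E5.16 (chrIII:10989559-10989698, plus strand): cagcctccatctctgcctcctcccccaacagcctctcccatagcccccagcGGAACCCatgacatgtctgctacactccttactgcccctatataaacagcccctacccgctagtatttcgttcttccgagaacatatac
F54D8.7 (chrIII:5080879-5081018, minus strand): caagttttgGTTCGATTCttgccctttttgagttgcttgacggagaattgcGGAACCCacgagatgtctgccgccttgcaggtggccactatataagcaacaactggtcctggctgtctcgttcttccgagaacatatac
sls-2.2 (chrII:5543478-5543617, plus strand): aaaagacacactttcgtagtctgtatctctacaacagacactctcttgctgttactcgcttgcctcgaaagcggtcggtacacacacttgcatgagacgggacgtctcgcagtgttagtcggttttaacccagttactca
F38E11.11 (chrIV:9444522-9444661, plus strand): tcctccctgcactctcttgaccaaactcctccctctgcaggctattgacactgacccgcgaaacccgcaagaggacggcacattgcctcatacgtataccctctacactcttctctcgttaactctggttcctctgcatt
sup-6 (chrII:12944948-12945087, minus strand): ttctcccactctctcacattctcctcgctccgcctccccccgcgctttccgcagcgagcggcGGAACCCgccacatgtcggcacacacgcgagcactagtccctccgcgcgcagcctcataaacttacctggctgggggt

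For contrast, the stretch before 2 snoRNA genes in introns of ribosomal protein genes is shown. Neither had a region in any list. They were chosen after their values were seen, and neither holds a B-type run. K11H12.12 lies in rpl-15 and B0250.19 in rpl-2.
K11H12.12 (chrIV:654011-654150, minus strand): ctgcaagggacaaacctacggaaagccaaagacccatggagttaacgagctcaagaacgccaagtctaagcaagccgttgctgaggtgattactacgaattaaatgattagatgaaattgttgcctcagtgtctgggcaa
B0250.19 (chrV:20479889-20480028, plus strand): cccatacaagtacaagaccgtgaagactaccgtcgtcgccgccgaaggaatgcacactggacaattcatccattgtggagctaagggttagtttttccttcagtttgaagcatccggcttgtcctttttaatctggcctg

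An IDR region was found at 50 of the 475 genes, and these genes held 49 distinct regions because C51F7.3 and C51F7.4 shared one. Of all annotated nuclear genes, 2.44% had an IDR summit within the same distance. snoRNA genes had one in 43 of 346 cases (12.4%, 95% Wilson interval 9.36 to 16.3%). snRNA genes had one in 7 of 129 cases (5.43%, 2.65 to 10.8%). The windows around the 475 genes covered 0.247% of the nuclear genome and held 49 of the 1106 IDR summits (4.43%). Intervals cover counting error only, and genes are not replicates of a condition, so the tests below describe these lists.

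The weaker lists gave smaller contrasts with the background. In the pooled list, 103 snoRNA genes (29.8%) and 26 snRNA genes (20.2%) had a region, against 18.2% of all nuclear genes. The snRNA share of the pooled list was thus near the background, whose value lay inside its interval of 14.1 to 27.9%. The background of every list includes 15363 piRNA genes with a median length of 21 bp, and 2.17% of these had a pooled region. By class, a pooled region lay at 29.9% of protein-coding genes, searched over the whole gene, 19.98% of ncRNA genes and 13.8% of miRNA genes. The snoRNA share was therefore above the background of all genes but not above that of protein-coding genes. The replicate 1 list had a region at 130 members and the replicate 2 list at 129, where the background was 21.7% and 20.3% of genes. A region was present in both replicate lists at 96 members, in 1 list at 67 and in neither at 312.

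The odds ratio for snRNA against snoRNA genes was 0.404 (95% Woolf interval 0.177 to 0.924), and the difference did not pass the threshold of 0.05 after adjustment (two-sided Fisher's exact test, p = 0.0285, Benjamini-Hochberg adjusted p = 0.057 over 4 comparisons). Among tRNA genes, 82 of 612 (13.4%) had an IDR region. snRNA genes had one less often than tRNA genes, with an odds ratio of 0.371 (0.167 to 0.822; Fisher's exact test, adjusted p = 0.0427). That call was lost under 5 of 11 alternatives, among them the upper 50% of IDR regions, where the odds ratio was 0.946 (adjusted p = 1), and replicate 2 alone, where it was 0.608 (adjusted p = 0.241). snoRNA and tRNA genes did not pass the test of a difference, with an odds ratio of 0.917 (0.618 to 1.36; Fisher's exact test, adjusted p = 0.691). That direction turned under 5 of 11 alternatives, with odds ratios up to 1.91 in the upper 50% of IDR regions and 1.41 with replicate 2 alone, none past the threshold. In the pooled list, 45.8% of tRNA genes had a region against 29.8% of snoRNA genes, and there the difference passed (odds ratio 0.503, Fisher's exact test, adjusted p = 2.13e-06).

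Other short noncoding classes had lower shares. An IDR region lay at 3.55% of ncRNA genes, 1.15% of miRNA genes and 0.0456% of piRNA genes. The share was 3.53% for protein-coding genes, for which the whole gene with 200 bp on each side was searched. The ncRNA and protein-coding shares lay inside the snRNA interval of 2.65 to 10.8%, so snRNA genes were not set above them. snoRNA genes had a median length of 130 bp, snRNA genes of 109 bp and tRNA genes of 72 bp.

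Copies limit what can be read from snRNA genes. Of the snRNA genes, 36 had windows in which at least 90% of the 32-base words occur once in the genome, against 307 of the 346 snoRNA genes. Among these, 1 of the 36 snRNA genes and 42 of the 307 snoRNA genes had an IDR region, an odds ratio of 0.180 against 0.404 over all genes (Fisher's exact test, adjusted p = 0.129, a limit on uniqueness chosen after seeing the data). How reads that match several places were handled is not stated in the sources.

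The strongest snoRNA region was the one shared by C51F7.3 (WBGene00014290) and C51F7.4 (WBGene00219860), inside frm-7, which encodes a FERM domain protein. Its signal was 296.1 in the pooled and IDR lists, 165.7 in replicate 1 and 128.8 in replicate 2. The IDR list repeated the pooled signal for every member. The summit lay 76 bp before the start of C51F7.3, which sits in an intron, and 33 bp inside C51F7.4, which overlaps an annotated exon. ZK994.7, in an intron of the peroxidasin gene pxn-1, had 254.3 in the pooled list, with 137.5 and 116.3 in replicates 1 and 2. Its summit fell on the first base of the gene.

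T03F7.8, inside the cuticlin-like gene cutl-18 on the opposite strand had a pooled signal of 235.3 (116.1 and 116.7 in replicates 1 and 2). W03C9.9, a stand-alone gene, had 228.0 (119.6 and 108.9). T06C12.16, also stand-alone, had 200.1 (102.9 and 90.2). The replicates were nearly equal at T03F7.8, and replicate 1 was the higher at W03C9.9 and T06C12.16. Y43F8C.22, in an intron of Y43F8C.7, had a pooled signal of 197.9 (107.7 and 89.96). C05D2.15, in an intron of the MADF domain gene madf-11, had 182.7 (87.2 and 97.9).

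Of the 20 highest distinct regions, 6 lay on chromosome I. The stand-alone snoRNA gene F59C6.15 had a pooled signal of 261.6, with 135.2 in replicate 1 and 123.2 in replicate 2, and its summit lay 132 bp before the gene. F39B2.14, which overlaps an exon, had 214.9, and here replicate 2 was higher than replicate 1 (123.5 against 85.6). T02E1.9, overlapping an exon, had 187.4, with 96.0 and 95.4 in the replicates. ZK265.10 had 169.9 (77.9 and 86.0) and T19B4.8 had 148.2 (86.4 and 57.7). The sixth was the SL2 RNA gene sls-2.4. The remaining snoRNA genes of the 20 were C10C6.8 at 156.3, D1046.6 at 152.7, C41C4.11 at 150.1 and M7.15 at 144.9.

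The lowest IDR members lay just above the limit of the list, at a signal of 71.1. These were sup-6 at 76.2, ZK643.9 at 72.4 and Y71F9AM.7 at 71.7. Just outside it were C27H5.9 at 70.8, K02C4.8 at 70.4 and F37A8.7 at 70.2. C27H5.9 had 54.2 in replicate 1 and 16.8 in replicate 2, while F37A8.7 had a region in replicate 2 alone (41.96). The 50 IDR members had a −log10 q between 2.49 and 3.29, and the 79 members with a pooled region below the IDR list had a median signal of 37.5.

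Among the 7 snRNA genes with an IDR region, 3 were SL2 RNA genes. The gene sls-2.1 had the highest pooled signal of the 7, 184.2, with 97.6 in replicate 1 and 85.6 in replicate 2. The gene sls-2.4 had 168.6 (87.0 and 81.4), and sls-2.2 had 120.6 (74.6 and 52.4) with its summit 103 bp after the start, near the end of the gene. Of the 18 SL2 RNA genes, 3 had an IDR region (16.7%, Wilson interval 5.84 to 39.2%) and 6 a pooled region, which included sls-2.9 at 64.2 and sls-2.8 at 61.9. Both of these were higher in replicate 2 (42.2 and 39.3) than in replicate 1 (22.02 and 21.80).

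The 12 SL1 RNA genes had no region in any of the 4 lists, and 0 of 12 allows a share of up to 25%. Where a class had no IDR region, such a limit is 3 genes as a percentage of the class, not a Wilson limit. These genes are repeated in tandem with the 5S ribosomal RNA genes, and the median share of unique 32-base words in their windows was 0%. The absence of a listed region therefore cannot be told apart from reads that could not be placed. The 10 SmY genes annotated as snRNA, whose products are nematode RNAs that bind Sm proteins, also had none in any list (0 of 10, up to 30%). Their windows were 91.3 to 100% unique. The annotation gives smy-2 and smy-3 as snoRNA genes, and they were counted there. Of these, smy-2, in an intron of C33A12.3, had a weak pooled region at 25.6 and one in the replicate 2 list at 21.3, and smy-3 had none. These SmY genes were named after their values were seen.

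The other 89 snRNA genes included 4 with an IDR region (4.49%). R07E5.16 (WBGene00014543), in an intron of the dynein heavy chain gene dhc-4, had 173.8 in the pooled list, with 85.6 and 88.0 in replicates 1 and 2. Of the 14 genes with that name, 3 had a pooled region, and the copy WBGene00014484 in an intron of mpc-1, a mitochondrial pyruvate carrier gene, reached 46.96. F54D8.7 (WBGene00195000) had 166.5 (83.4 and 80.4). F38E11.11 (WBGene00014366) had 117.0, and replicate 1 was higher (74.7 against 43.9). The gene sup-6, a U1 snRNA gene known from suppressor mutations, had 76.2, with 49.2 in replicate 1 and 27.7 in replicate 2. T11F9.15 (WBGene00014291) was the highest snRNA gene below the IDR list, at 66.2. Windows of the 7 IDR snRNA genes were 80.4 to 95.4% unique.

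**Figure D1:**
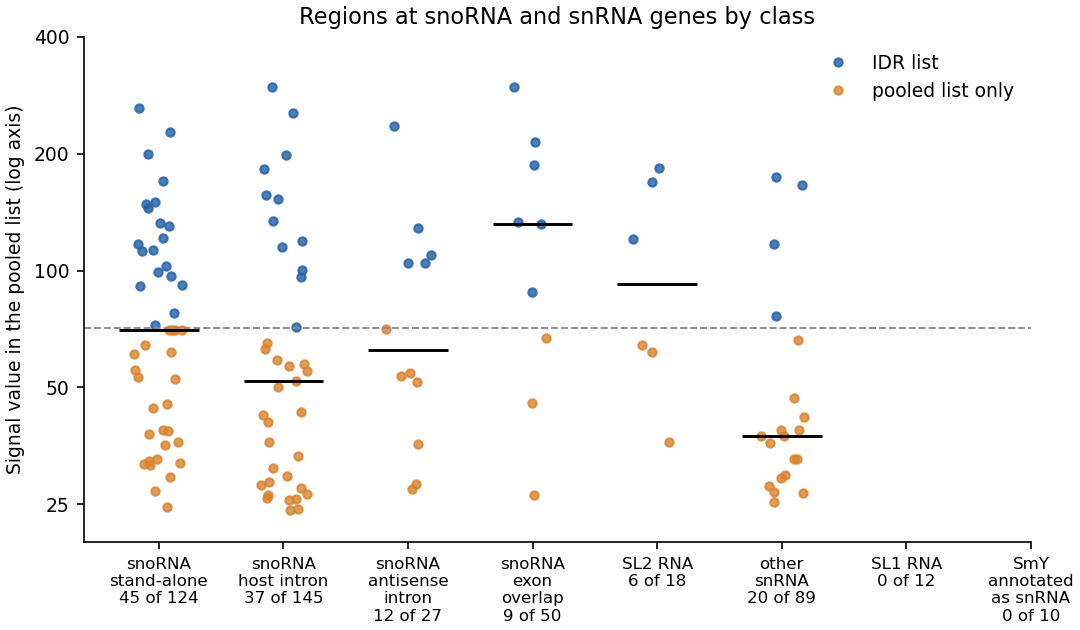
Signal in the pooled list (vertical axis, log scale) of each snoRNA or snRNA gene with a pooled region, by class. Points are genes, coloured by whether the region is also in the IDR list, bars are medians, the dashed line is the lowest IDR signal (71.1), and the counts under each class are genes with a pooled region of all genes. The columns of SL1 genes and of SmY genes annotated as snRNA are empty (smy-2, at 25.6, is plotted with the host-intron snoRNA genes), and the 6 highest snRNA points lie between 117.0 and 184.2.

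Signal among genes with a pooled region had a wide spread in both biotypes. The median was 38.8 over 26 snRNA genes and 62.7 over 103 snoRNA genes. The snRNA median minus the snoRNA median was -23.8, which did not pass a two-sided permutation test of medians (100000 resamples, p = 0.0857). In the list of replicate 2 alone the medians fell by 15.8 from snoRNA to snRNA genes (permutation test, p = 0.0295). In the list of replicate 1 alone they fell by 8.47, which did not pass (permutation test, p = 0.292).

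The place of a snoRNA gene was read from the annotation. Stand-alone genes overlap no protein-coding gene, and host-intron genes lie in an intron of one on the same strand. An IDR region was found at 20 of 124 stand-alone genes (16.1%, 10.7 to 23.6%) and at 12 of 145 host-intron genes (8.28%, 4.797 to 13.9%). The odds ratio was 2.13 (0.997 to 4.56), and the difference did not pass the threshold (Fisher's exact test, adjusted p = 0.0783). Among genes with a pooled region, the median signal was 70.2 in 45 stand-alone and 52.0 in 37 host-intron genes, a difference of 18.2 that did not pass (permutation test, p = 0.0968). Of the 27 genes in introns of the opposite strand, 5 had an IDR region, and of the 50 that overlap an exon, 6 did. Among snRNA genes, 5 of 62 stand-alone and 2 of 35 host-intron genes had one.

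Summits lay mostly just before the start of the gene. Of the 50 IDR members, 42 had the summit upstream of the start, 7 inside the gene and 1 downstream. The median position was 44 bp upstream, with quartiles at 67 and 14 bp upstream. In 35 genes (70.0%) the summit lay 10 to 85 bp upstream, against 32.9% of the 79 genes with a pooled region below the IDR list. The latter had a median of 16 bp upstream and 16 summits downstream of the gene. Starts of protein-coding transcripts were seldom near, since 6 of the 50 IDR members had one within 200 bp of the summit and 27 had none within 1000 bp. Among the 79 genes with a pooled region below the IDR list, these counts were 2 and 38. A coding start within 200 bp was thus more frequent among IDR members, while the median distances were 1058 bp and 988 bp in that order. These differences were not tested. The same counts were not made for the other IDR regions.

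**Figure D2:**
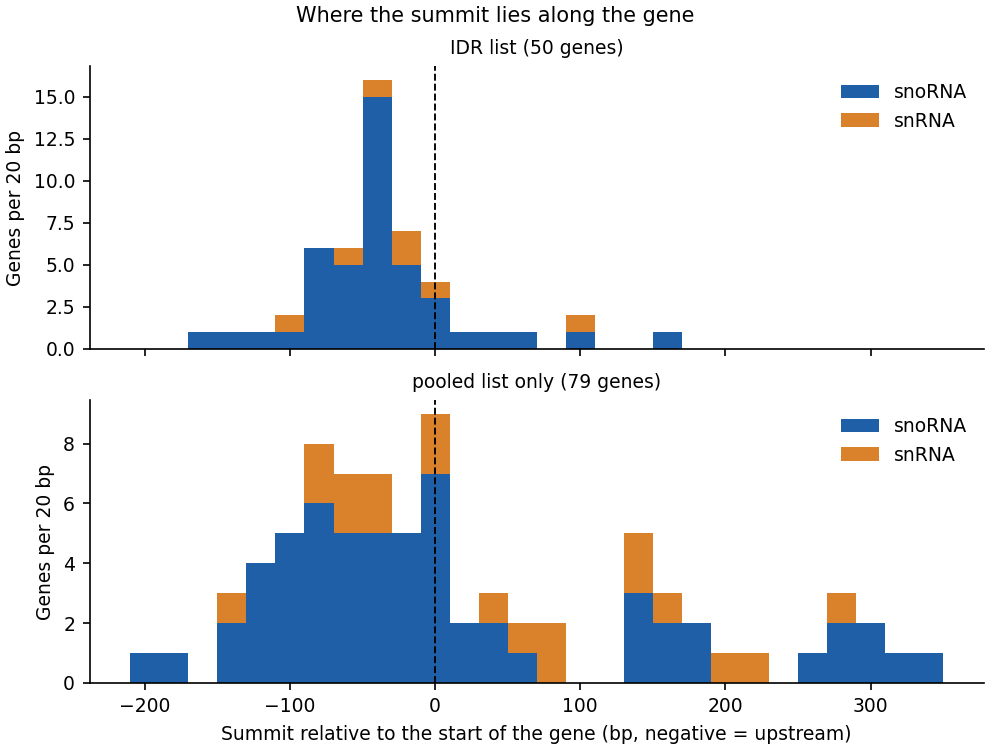
Number of genes (vertical axis) by the position of the summit relative to the start of the gene (horizontal axis, bp, negative upstream), for members with an IDR region (top) and with a pooled region below the IDR list (bottom). The IDR summits gather upstream of the start, with a median of 44 bp, while the others spread over the window.

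The A-type and B-type pair was searched on the strand of each gene, from 150 bases before the start to 30 after it. The letters were picked after the sequences of IDR members were seen, so the counts are given as a description. The pair was found at 27 of 346 snoRNA genes, and 18 of these had an IDR region (66.7%, 47.8 to 81.4%). Of the 319 snoRNA genes without it, 25 did (7.84%, 5.36 to 11.3%). The pair was present at 41.9% of snoRNA genes with an IDR region, 8.33% of those with a pooled region only and 1.65% of those with neither. It was present at 0.253% of 29304 protein-coding transcript starts searched in the same way, and in 74.8% of tRNA genes searched over the whole gene. No snRNA gene of 129 had it. Searched for by itself, the A-type run lay at 74.4%, 51.7% and 44.4% of snoRNA genes with an IDR region, a pooled region only and neither. For the B-type run the shares were 46.5%, 15% and 4.94%. The A-type run by itself was thus common, and it also lay at 36.6% of the protein-coding transcript starts.

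The pair and the place of the gene were compared in counts. Among host-intron snoRNA genes, 6 of 11 with the pair and 6 of 134 without it had an IDR region. Among stand-alone genes the counts were 8 of 10 and 12 of 114. Among genes in an intron of the opposite strand they were 3 of 5 and 2 of 22, and among those over an exon 1 of 1 and 5 of 49. In all 4 places the share was higher with the pair. The letters were picked from IDR members that are counted here, so a higher share was in part built in. The place over an exon held only 1 gene with the pair.

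**Figure D3:**
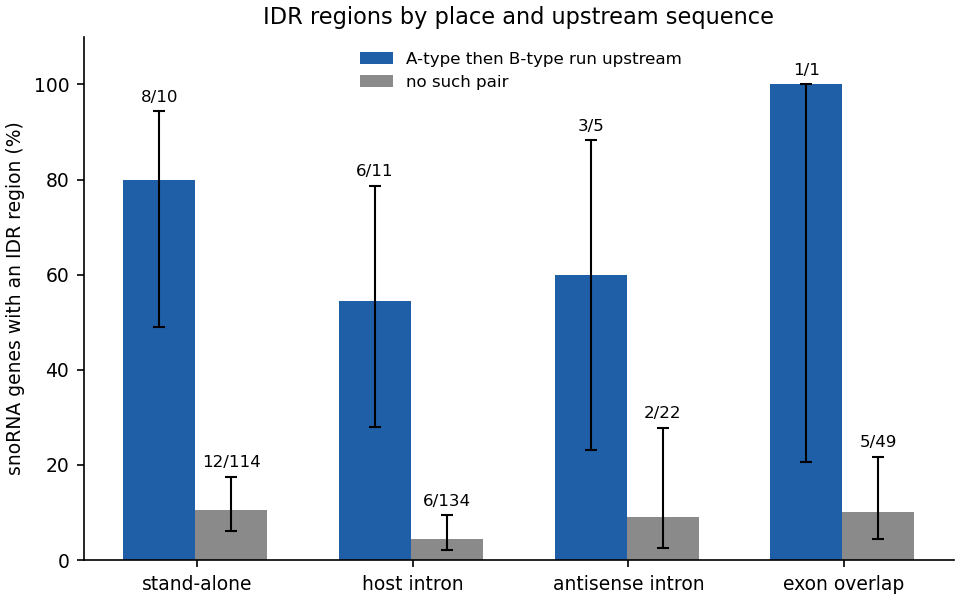
Share of snoRNA genes with an IDR region (vertical axis, %), by place of the gene and by whether an A-type and then a B-type run lies before its start. Bars are shares with 95% Wilson intervals, and the counts are genes with an IDR region of all genes. Host-intron genes reach 54.5% with the pair and 4.48% without it. The letters were picked after sequences of IDR members counted here were seen, so the bars are a description.

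In the 18 IDR genes with the pair, the A-type run started 99 to 42 bases before the gene (median 55.5) and the B-type run 44 to 5 bases before it (median 14). The distance between the 2 starts was 35 to 55 bases, with a median of 43. Where more than 1 pair fits, these positions are those of the last pair. The summit lay between the start of the A-type and the start of the B-type run in 13 of the 18. No tRNA gene was annotated within 200 bp of the summit of any of the 50 IDR members. An annotated ncRNA gene lay within that distance at 18 of them and a pseudogene at 1. These neighbours were not counted at other IDR regions, so whether 18 of 50 is unusual is unknown. Signal in the 18 genes reached from 96.5 in Y38F2AR.14 to 296.1 in C51F7.3.

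The 9 genes with the pair and no IDR region were of mixed standing. A pooled region was present at 5 of them, among them Y39G10AR.24 at 70.2 and T08B2.13 at 65.0, close to the limit of 71.1. The other 4 had no region in any list. They were R166.7 in mnk-1, C06A1.8 in cdc-48.1, Y59E1B.14 on chromosome X, and Y6B3B.15, whose window was 19.9% unique. The first 3 had windows at least 99.6% unique. These genes were named after their values were seen.

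Other short runs were counted within 100 bp of the summit on both strands. GGAA, the core that ETS factors recognise, lay at 67.3% of the 49 member regions, 82.3% of the other 1057 IDR regions and 86.8% of 6130 low-ranked pooled regions. The longer CCGGAA lay at 4.08%, 5.87% and 7.80% in that order. GAGAGA was at 28.6%, 39.9% and 15.7%, and CTGCGTCTC at 2.04%, 12.7% and 2.07%. GAGAGA and CTGCGTCTC were chosen with earlier results of these lists known, so their shares in IDR regions are no independent observation. The B-type run alone was at 46.9% of member regions, 10.9% of other IDR regions and 6.82% of low-ranked regions. Its letters were picked from IDR members counted here, so its higher share was in part built in. TATAA was at 36.7%, 23.5% and 40.8%. Mean GC content was 49.0%, 44.8% and 37.9%, so the 3 sets differed in base composition.

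GGAACCC was present before 31 of 129 snRNA genes and 21 of 346 snoRNA genes, against 0.283% of protein-coding transcript starts. Of the 31 snRNA genes, 3 had an IDR region, and these were the copy of R07E5.16 named above, F54D8.7 and sup-6. Of the 98 without it, 4 did. The run was thus frequent before snRNA genes with and without a region, and it lay before 5 of the 10 SmY genes annotated as snRNA, which had no region. It also lay before smy-2, which had a weak pooled region, and smy-3, which had none.

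Host genes of the 145 host-intron snoRNA genes numbered 126, and 12 of them had an IDR region at their snoRNA gene. Besides those named above, these included catp-8, a cation-transporting ATPase gene (C10C6.8, pooled signal 156.3, with 62.9 and 91.8 in replicates 1 and 2). They also included cfim-2, a gene for an mRNA cleavage factor subunit (D1046.6, 95.4 and 60.4 in the replicates), and unc-41, a gene for a stonin of synaptic vesicle recycling (C27H6.5, 133.9 pooled). The channel gene cng-3 held F38E11.14 at 114.9. Hosts named by sequence only held 17 snoRNA genes, of which 4 had an IDR region, in Y43F8C.7, F55A11.6 (119.4), T24H7.2 (100.4) and Y38F2AR.12 (96.5). Other named hosts had 8 of 95.

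Hosts of the translation apparatus had no IDR region at their snoRNA genes. Ribosomal protein genes held 21 snoRNA genes in 14 hosts, and none had an IDR region. That allows a share of up to 14.3%, with a Wilson upper limit of 15.5%. The only one with a pooled region was D1007.20 in rpl-24.1, at 26.4, near the bottom of that list. None of the 21 had the B-type run. An IDR summit lay within 200 bp of the start of 2 of these 14 hosts, rps-12 (signal 248.5) and rpl-7A (74.1). The translation factor genes eef-1G and iff-2 also had one at their own start (86.1 and 202.6) and none at their 3 snoRNA genes. The group was small, and its difference from other hosts was not tested.

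The remaining groups were smaller still. The 4 snoRNA genes in nol-56, which encodes a core protein of box C/D snoRNA particles, and the 2 in prp-8, which encodes a core spliceosome protein, had no region in any list. F26D10.24 in the chaperone gene hsp-1 and T23B12.13 in mrps-2, a gene for a mitochondrial ribosomal protein, each had a region in 1 replicate list only (16.6 in replicate 2 and 21.7 in replicate 1). T08B2.13 in fars-1, a tRNA synthetase subunit gene, had a pooled region and was the only gene of these function groups with the A-type and B-type pair. Of all 126 hosts, 10 had an IDR summit within 200 bp of their own start. The share over all protein-coding starts was not counted. In 2 of these hosts, F55A11.6 and cogc-3, the region at the start was the same one as at the snoRNA gene (signal 119.4 and 71.7). A single region was thus counted at both.

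Shares by chromosome are given as a description. Among snoRNA genes, an IDR region was present at 4 of 54 on III (7.41%), 10 of 74 on I (13.5%), 9 of 59 on IV (15.3%), 11 of 71 on II (15.5%) and 9 of 55 on V (16.4%). None of the 33 on X had one, and 5 of them had a pooled region. The absence on X allows a share of up to 9.09%, with a Wilson upper limit of 10.4%. Of 40 snRNA genes on V, among them the 12 SL1 RNA genes, none had an IDR region. Between 4 and 6 Mb of III, 3 of 13 members did. Differences between chromosomes were not tested. For snoRNA genes, the Wilson intervals of III (2.92 to 17.6%) and V (8.86 to 28.3%) overlapped. The share over all genes of each chromosome was not counted, so whether snoRNA genes depart from it is unknown.

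The replicates were compared for each member. All 50 IDR members had a region in both replicate lists. Signal at these genes ran from 29.0 to 165.7 in replicate 1 (median 68.7) and from 27.7 to 128.8 in replicate 2 (median 59.9). Over the 49 distinct regions Spearman's rho was 0.77 and Pearson's r of log2 signal 0.78, given as a description across regions that share both libraries and the control. After the median ratio of 1.05 was removed, 41 of 50 genes (82.0%) were within 1.5-fold. The ratio of replicate 1 to replicate 2 ran from 0.609 to 1.81. The 2 summits of a gene lay a median of 19 bp apart, 35 pairs were within 25 bp, and the widest gap was 205 bp. Among the 1106 regions of highest signal in each replicate, 46 of the 50 genes had a region in both.

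Members with a pooled region below the IDR list matched less closely. Of the 79, 44 had a region in both replicate lists, and Spearman's rho over their 43 distinct pairs was 0.19. The ratio ran from 0.444 to 3.23, and 24 of the 44 were within 1.5-fold. IDR members were selected on agreement between replicates, so the closer match at those genes is no independent observation.

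**Figure D4:**
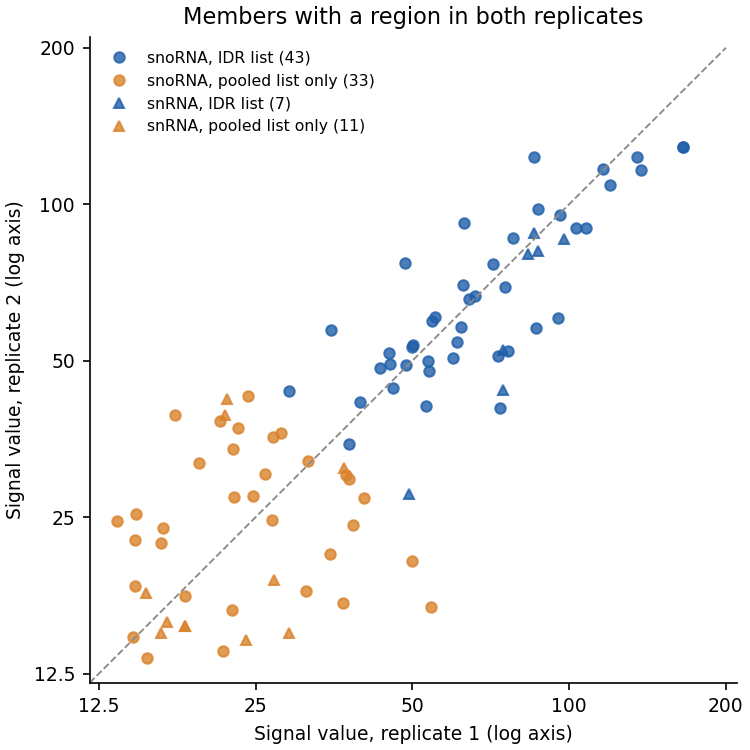
Signal in replicate 1 (horizontal axis) against replicate 2 (vertical axis), both on log scales, for members with a region in both replicate lists and in the pooled list. Points are genes, circles snoRNA and triangles snRNA, coloured by list, and the dashed line marks equal signal. IDR members lie along the line from 27.7 upward, while the others, up to 54.2 in replicate 1, spread more widely around it.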

How the data were processed

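ChIP-seq regions of tagged ETS-4 in 2 replicate samples were analysed from 4 lists in ce11. Per the deposited readme texts, the authors called regions against a control in each replicate and in both pooled, and derived the IDR list from those lists. No source used here names the aligner, peak caller or IDR threshold. Signal (column 7) and −log10 q (column 9) are the values the authors deposited. No read counts were given, so depth is unknown.

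Members, lists, runs of letters and named genes were chosen with earlier results of these data known. Genes came from Ensembl release 115 and sequence from the RefSeq WBcel235 genome. A summit counted within 200 bp of a gene. Named genes are the 20 distinct regions of highest IDR signal, the 10 snRNA and 10 host-intron snoRNA genes of highest pooled signal, 3 members on each side of the IDR limit, and up to 4 hosts per function group, grouped by gene name. Low-ranked regions are pooled regions below the median signal without an IDR summit. Shares were compared with Fisher's exact tests and medians with permutation tests (SciPy 1.17.1, Python 3.11.15). Uniqueness is the share of 32-base words, in a gene and 200 bp on each side, found once in the genome. On simulated data with planted shares of 30% in snRNA and 12% in snoRNA genes, their comparison was called in 99 of 100 draws. With 12% in both it was called in 0 of 100. The planted gap was wider than that observed and in the opposite direction. The power to call the observed gap was not simulated. Lists in ce10 were not used.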

Additional observations from a re-analysis of the deposited data

How the results depend on the processing

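All values here are odds ratios with Fisher's exact adjusted p unless named otherwise, and the cause of each change was not tested. snRNA against snoRNA genes kept its direction under all 11 alternatives and passed the threshold under 5 of them, with a window of 500 bp (0.374, adjusted p = 0.0262), any base of the region within 200 bp (0.332, 0.0152), any pooled region (0.596, 0.0498), without replicate 2 (range of the 2 fits that leave a replicate out 0.401 to 0.431) and without 4 to 6 Mb of III (0.36, 0.0468). Stand-alone against host-intron snoRNA genes kept its direction under its 11 alternatives and passed (Fisher's exact test) only without 4 to 6 Mb of III (2.32, 0.0476), with 2.07 to 2.52 when a replicate was left out. snRNA against tRNA genes no longer passed with a window of 100 bp (0.387, 0.0598), the upper 50% of IDR regions (0.946, 1), without replicate 1 (0.369 to 0.608 over the replicates left out), with summits near a coding start not counted (0.393, 0.0601) and with genes at least 90% unique (0.213, 0.252), an alternative chosen after seeing the data. snoRNA against tRNA genes changed direction with a window of 500 bp (1.08), any base (1.07), the upper 50% (1.91), without replicate 1 (0.921 to 1.41) and with genes at least 90% unique (1.18), none past the threshold, and was lower with any pooled region (0.503, adjusted p = 2.13e-06). The median signal difference of snRNA against snoRNA genes was -15.8 to -8.47 when a replicate was left out, and passed without replicate 1 (permutation p = 0.0295). Stand-alone against host-intron signal was 7.91 to 9.75. The share of snoRNA genes with the A-type and B-type pair that had an IDR region was 66.7% to 74.1% when a replicate was left out. This outcome was chosen after seeing the data. The letters were picked from IDR members made from both replicates, so the range is no independent check. A single replicate's lists used its 1106 regions of highest signal in place of the IDR list. No paired analysis was possible because the samples form 1 group.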
